A study of Drosophila melanogaster and Drosophila simulans and Drosophila yakuba with 12 samples.

Results

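mir-958 is a microRNA gene of fruit flies, 1 of the 176 D. melanogaster hairpins in the deposited alignment texts, and both of its arms were followed through all 12 libraries of the series. It was chosen by its measured read shares, which differed between the sexes and between the stages of D. melanogaster, so its levels in those contrasts are given as a description, without a test. Small RNA of whole animals was sequenced from 3 species, each represented by a single strain: D. yakuba by 14021-0261.00, D. simulans by 14021-0251.167 and Drosophila melanogaster by Oregon-R. Wandering larvae were taken 18 h before puparium formation and prepupae no later than 1 h after it, raised on medium with bromophenol blue, a gut dye used for staging, and with no genetic change or other treatment named in the labels. D. melanogaster gave 2 RNA samples of male larvae, 2 of male prepupae, 1 of female larvae and 1 of female prepupae. D. simulans and D. yakuba gave males alone, with 1 larval and 1 prepupal RNA each, and each of those prepupal RNAs was made into 2 technical libraries, so the 12 libraries stand for 10 RNA samples. Every library carried a 4-nt index at the 3′ end of its 5′ adaptor and belonged to 1 of 3 pools named SDY1, SDY3 and SDY4. Pool SDY1 held the 2 female libraries of D. melanogaster and replicate 1 of its male larvae and male prepupae, and pools SDY3 and SDY4 held male libraries alone.

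A microRNA is cut from a folded transcript in steps: Drosha releases the hairpin in the nucleus, Dicer-1 removes its loop, and 1 of the strands of the remaining duplex is loaded into an Argonaute protein while the other is mostly degraded. The loaded strand binds messenger RNAs mainly through its seed, bases 2 to 8 from its 5′ end, so the 5p and the 3p arm of a hairpin address different targets. In D. melanogaster, miR-958 has been reported to repress Toll signalling, the pathway that turns on antifungal peptides such as Drosomycin, by acting on the receptor Toll and on the transcription factor Dif.

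The mature arms are shown first, with the seed in capitals, because everything below turns on the difference between them.
miR-958-5p: aGUAGAAUagcaggcuuaucaca
miR-958-3p: uGAGAUUCuucuauucuacuuu
The hairpins of both species with a listed mir-958 follow, with both arms in capitals.
dme-mir-958: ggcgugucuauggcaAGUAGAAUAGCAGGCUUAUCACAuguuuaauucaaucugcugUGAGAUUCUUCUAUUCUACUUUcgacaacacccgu
dsi-mir-958: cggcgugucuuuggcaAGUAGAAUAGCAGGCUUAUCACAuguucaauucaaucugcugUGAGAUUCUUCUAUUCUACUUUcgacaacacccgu
The sequences are those of the deposited alignment texts, which rest on miRBase release 15. That release annotated the 3p arm as the mature product in D. melanogaster and the 5p arm in D. simulans. The D. simulans hairpin has 1 more base at its 5′ end and differs from that of D. melanogaster by 2 substitutions, A10U and U43C, counted from 1 at the 5′ end of the D. melanogaster hairpin with its base first. Both lie outside the arms, which are identical in the 2 species. mir-958 is not among the 80 hairpins listed for D. yakuba, and the libraries of that species were counted on the D. melanogaster hairpin.

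In the deposited fold of the D. melanogaster hairpin, the 5p arm spans bases 16 to 38 and the 3p arm bases 58 to 79, with 19 bases of loop between them. Of the 23 bases of the 5p arm, 16 pair with a base of the 3p arm, and the 3p arm reaches 2 bases past the partner of the first 5p base, the overhang that Drosha leaves. None of the 379 other sequences compared (annotated matures and the most-read sequence of each arm) has the seed of either arm. The nearest are bantam, a growth and survival miRNA of larval tissues, and miR-977, a testis-rich miRNA, which share the first 6 bases of miR-958-3p and part from it at base 7.
bantam-3p: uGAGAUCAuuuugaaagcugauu
mir-977: uGAGAUAUucacguugucuaa

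In the BDGP6 annotation the gene mir-958 (FBgn0262249) lies on the minus strand of chromosome arm 3L, at 3L:22669289-22669380. The 5p arm falls at 3L:22669343-22669365 and the 3p arm at 3L:22669302-22669323. The hairpin is exonic, inside exon 1 (3L:22669250-22669528) of the long non-coding RNA CR43270, whose gene spans 3L:22665300-22669528. A gap of 427 bp separates that gene from Jhbp6, which is transcribed from the plus strand and starts at position 22669956.

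Reads on the hairpin formed 2 separate blocks in D. melanogaster and 1 block in D. simulans. Over all libraries, 510 reads matched the 5p arm and 241 the 3p arm exactly. miR-958-5p was read in 11 of the 12 libraries, and miR-958-3p in 4. The 5′ end, which sets the seed, was nearly uniform on both arms: 509 of 511 5p reads, 1 with an untemplated end included, started at the usual base (99.6%), as did all 241 3p reads. The 3′ ends differed between the arms. miR-958-3p had 22 nt in 235 of its reads (97.5%), and between 95.2% and 98.6% in the 3 libraries with at least 20 reads of it. miR-958-5p had its full 23 nt in 320 reads (62.6%), 22 nt in 70 reads and 21 nt in 83 reads, and the full length made up between 55.0% and 81.8% in the 6 libraries with at least 20 reads.

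**Figure D1:**
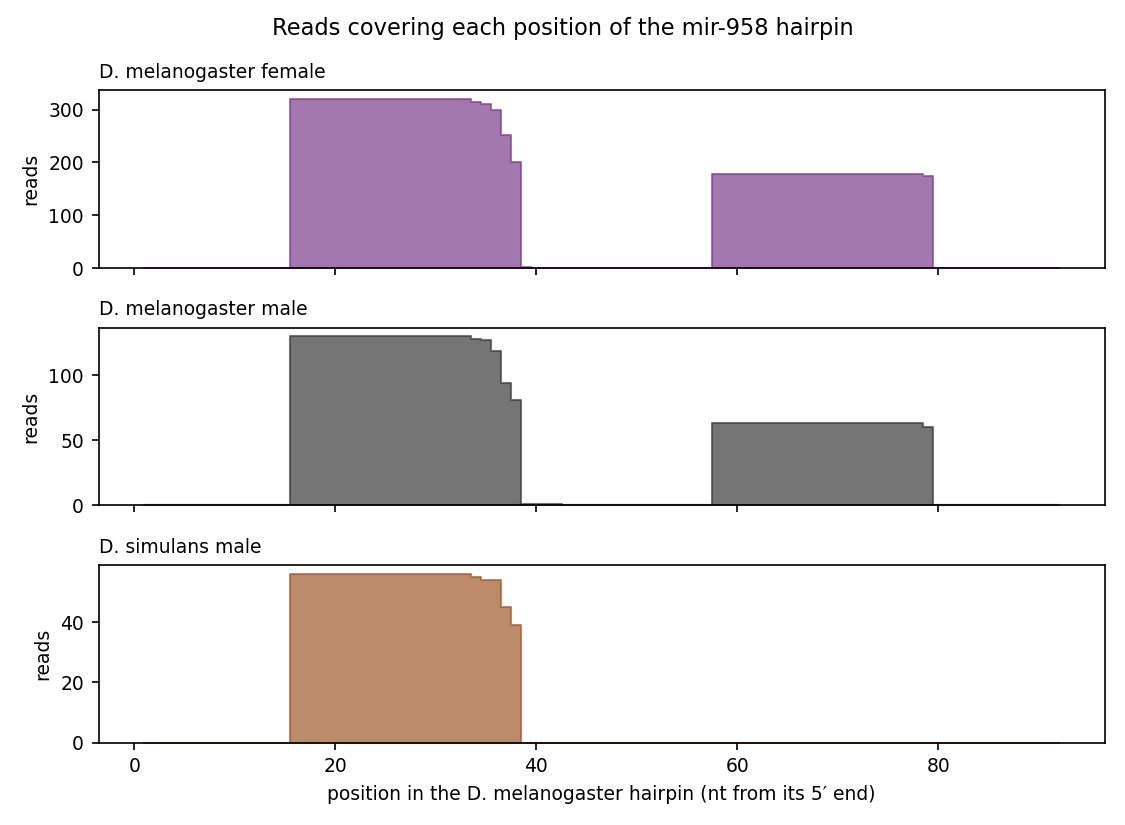
Number of reads covering each base of the mir-958 hairpin, with the position in nt on the x axis, in the 2 female libraries of D. melanogaster, its 4 male libraries and the 3 male libraries of D. simulans. Both arms were read in D. melanogaster and the 5p arm alone in D. simulans, and the 5p block steps down over its last bases where the 3p block ends almost squarely.

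Levels are given as shares of all miRNA reads of a library, with exact Clopper-Pearson 95% intervals. Totals ran from 1500 to 48209 reads per library. The reads were counted without molecular identifiers, and the intervals and floors therefore hold counting error alone. In these whole animals, fewer cells that make the miRNA and less of it per cell cannot be told apart.

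In D. melanogaster females, miR-958-5p had 50 of 4721 reads in the larval library (1.06%, 0.787% to 1.39%) and 270 of 48209 in the prepupal library (0.560%, 0.495% to 0.631%). In male larvae it had 89 of 29168 reads in replicate 1 (0.305%, 0.245% to 0.375%) and 12 of 10113 in replicate 2 (0.119%, 0.0613% to 0.207%). In male prepupae it had 20 of 10629 reads in replicate 1 (0.188%, 0.115% to 0.290%) and 9 of 9024 in replicate 2 (0.0997%, 0.0456% to 0.189%). Both female libraries lay above all 4 male libraries of the species, and the intervals did not overlap.

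In D. simulans males, miR-958-5p had 22 of 4814 reads in larvae (0.457%, 0.287% to 0.691%). The technical libraries of the prepupal RNA gave 34 of 23663 reads (0.144%, 0.0995% to 0.201%) and 0 of 5197 (up to 0.0710%). The larval library lay above both. In D. yakuba males, 1 of 3900 reads was miR-958-5p in larvae (0.0256%, up to 0.143%), and the technical prepupal libraries gave 2 of 22491 (0.00889%, up to 0.0321%) and 1 of 1500 (0.0667%, up to 0.371%). These 4 reads do not order the D. yakuba libraries.

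Ranked by its 5p share, the female larval library of D. melanogaster came first, followed by its female prepupae, D. simulans larvae, D. melanogaster male larvae 1, male prepupae 1, D. simulans prepupae 1, D. melanogaster male larvae 2 and male prepupae 2. The D. yakuba libraries came next, and D. simulans prepupae 2, with 0 reads, stood last. Apart from the first place, neighbours in that order had overlapping intervals. Among the arms with reads in a library, the 5p arm stood 20th of 82 in D. simulans larvae, 21st of 145 in female prepupae and 24th of 93 in female larvae.

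miR-958-3p was found in pool SDY1 alone. It had 109 reads in D. melanogaster female larvae (2.31%, 1.90% to 2.78%), where it was the 13th most-read arm of 93, and 69 in female prepupae (0.143%, 0.111% to 0.181%). Male replicate 1 gave 62 reads in larvae (0.213%, 0.163% to 0.272%) and 1 read in prepupae (0.00941%, up to 0.0524%). The female larval library stood apart from the other 3, among which male larvae 1 and female prepupae had overlapping intervals and male prepupae 1 lay below both.

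The other 8 libraries had 0 reads of the 3p arm. The exact intervals of these counts reach 0.0365% in male larvae 2 and 0.0409% in male prepupae 2 of D. melanogaster. They reach 0.0766% in larvae and 0.0156% and 0.0710% in prepupae of D. simulans. In D. yakuba they reach 0.0945% in larvae and 0.0164% and 0.246% in prepupae.

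**Figure D2:**
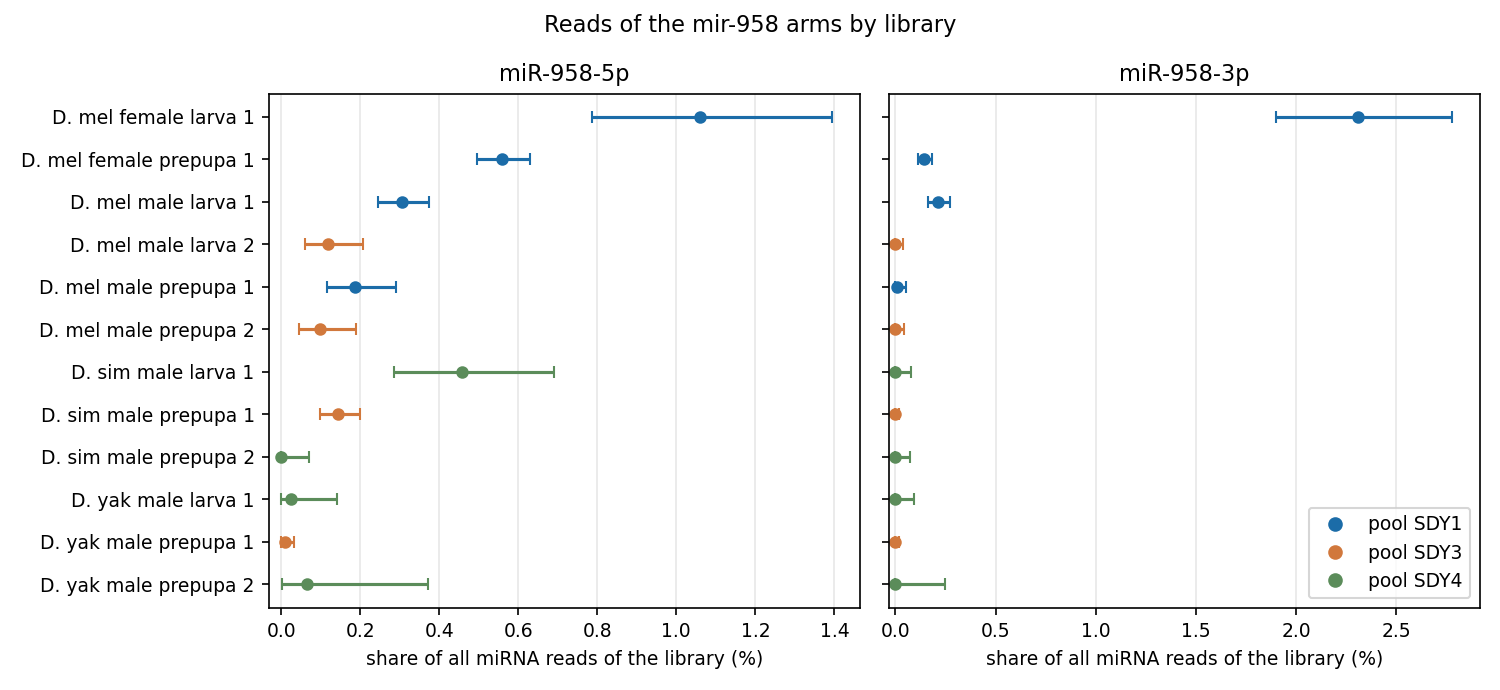
Share of all miRNA reads (%) of miR-958-5p and miR-958-3p in each of the 12 libraries, coloured by pool, with exact 95% intervals that cover counting error. Female larvae were highest for both arms, at 1.06% and 2.31%, and the libraries of pools SDY3 and SDY4 were at 0 for the 3p arm.

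The arms were used unequally from library to library. The 3p arm made up 109 of 159 mir-958 reads in female larvae (68.6%, 60.7% to 75.7%) and 62 of 151 in male larvae 1 (41.1%, 33.1% to 49.3%). It made up 69 of 339 in female prepupae (20.4%, 16.2% to 25.0%) and 1 of 21 in male prepupae 1 (4.76%, up to 23.8%). In both sexes the larval library of pool SDY1 had the larger 3p part, and the intervals of larvae and prepupae did not overlap within a sex. Male larvae 2, with 0 of 12 (up to 26.5%), lay below male larvae 1.

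D. simulans had 0 3p reads of 22 in larvae (up to 15.4%) and 0 of 34 in the deeper prepupal library (up to 10.3%). Together, the 8 libraries outside pool SDY1 gave 0 of 81 reads for the 3p arm, against 241 of 670 (35.97%) in pool SDY1. These sums join unlike libraries, whose 3p part ran from 4.76% to 68.6% within pool SDY1, so they are given without an interval. The D. melanogaster libraries outside that pool, both of males, gave 0 of 21 (up to 16.1%). The 3p arms of all miRNAs made up 50.2% to 53.4% of the reads in pool SDY1 and 47.99% to 74.2% in the other pools. Pool SDY1 held D. melanogaster alone, so species also differed between the summed pools. Pool and replicate went together in D. melanogaster males, and sex and index went together within pool SDY1, so these cannot be told apart.

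**Figure D3:**
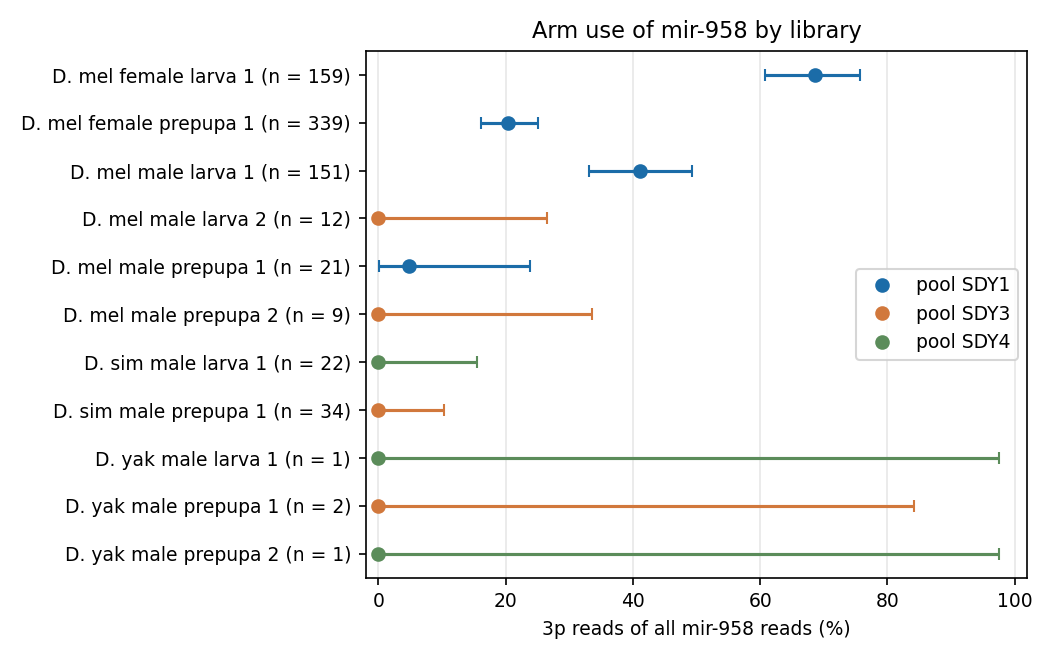
Percentage of mir-958 reads that came from the 3p arm in each library with reads on the hairpin, with n the reads of both arms and bars the exact 95% intervals. The percentages were 68.6, 41.1, 20.4 and 4.76 in pool SDY1 and 0 elsewhere, and the second prepupal library of D. simulans had no mir-958 read and is not drawn.

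The replicates of D. melanogaster males carried the same indexes (ACTG in larvae, TGAC in prepupae) in different pools and came from different RNA, so they show how far the arms moved with replicate and pool. The 5p share was 2.57 times higher in larval replicate 1 than in replicate 2 (1.40 to 5.16), and the 3p share at least 5.66 times higher. In prepupae the 5p ratio was 1.89 (0.821 to 4.71), an interval that includes equality. The difference between larval replicates in log2 of 3p over 5p reads, with 0.5 added to each count, was 4.13 for mir-958, the highest of the 34 hairpins with at least 20 reads in replicate 1 and 10 in replicate 2. Its size depends on the added 0.5, since replicate 2 had 12 5p and 0 3p reads. The next hairpin, mir-986, had 3.89. The median of those hairpins was −0.05 and the lowest −6.35, so arms of other hairpins moved as far the other way.

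Pool SDY1 gave 53.5% of all miRNA reads in the series. It gave 100% of the miR-958-3p reads and 84.1% of the miR-958-5p reads. Of the 66 arms with at least 100 reads, miR-958-3p was the only 1 with every read from that pool, 3 arms drew over 95% from it, and the median arm drew 64.5%. The next after miR-958-3p were miR-10-5p, a product of the Hox cluster locus of mir-10, with 95.8%, and miR-279-3p, known for its part in the neurons that sense carbon dioxide, with 95.5%. Both female libraries were in that pool, with 109 and 69 of the 241 miR-958-3p reads. The choice of mir-958 used their levels, so nothing is read from its place among the arms.

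**Figure D4:**
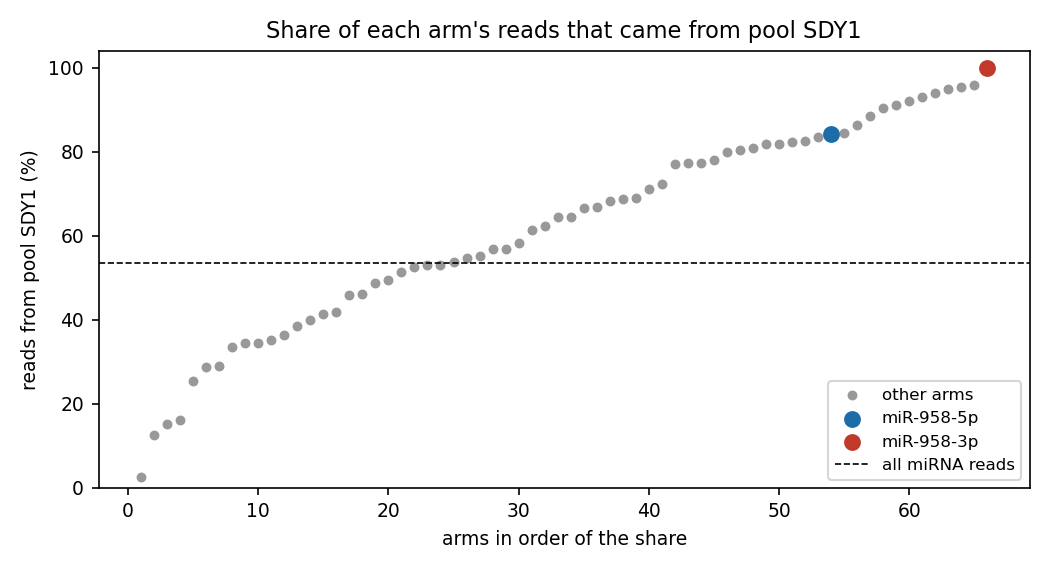
Percentage of the reads of each arm that came from pool SDY1, for the 66 arms with at least 100 reads in order of that percentage. The dashed line marks all miRNA reads (53.5%), and miR-958-3p stands at 100% and miR-958-5p at 84.1%. The pool held both female libraries, whose levels the choice of mir-958 used.

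The values that led to the choice of mir-958 are its differences by sex and stage in D. melanogaster. The 5p share was 3.47 times higher in female than in male larvae 1 (2.40 to 4.96) and 8.93 times higher than in male larvae 2 (4.69 to 18.4). The 3p share was 10.9 times higher than in male larvae 1 (7.88 to 15.1) and at least 62.2 times higher than in male larvae 2. In prepupae the 5p share was 2.98 times higher in females than in males 1 (1.89 to 4.95) and 5.62 times higher than in males 2 (2.91 to 12.4). The 3p share was 15.2 times that of male prepupae 1, where 1 read leaves an interval of 2.64 to 609, and at least 3.41 times that of male prepupae 2. Female libraries were higher for both arms in every one of these pairs.

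Larvae were compared with prepupae within a sex and pool. Female larvae had 1.89 times the 5p share of female prepupae (1.37 to 2.56) and 16.1 times the 3p share (11.8 to 22.1). Male larvae 1 had 1.62 times the 5p share of male prepupae 1 (0.990 to 2.78) and 22.6 times the 3p share (3.91 to 907). Male larvae 2 had 1.19 times the 5p share of male prepupae 2 (0.460 to 3.20), and neither had a 3p read. In the pool SDY1 libraries of both sexes the stage ratio of the 3p arm exceeded that of the 5p arm, and their intervals did not overlap. With TMM-scaled library sizes the 5p ratio was 1.07 in females and 0.870 in males 2, so the direction of the latter turned.

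**Figure D5:**
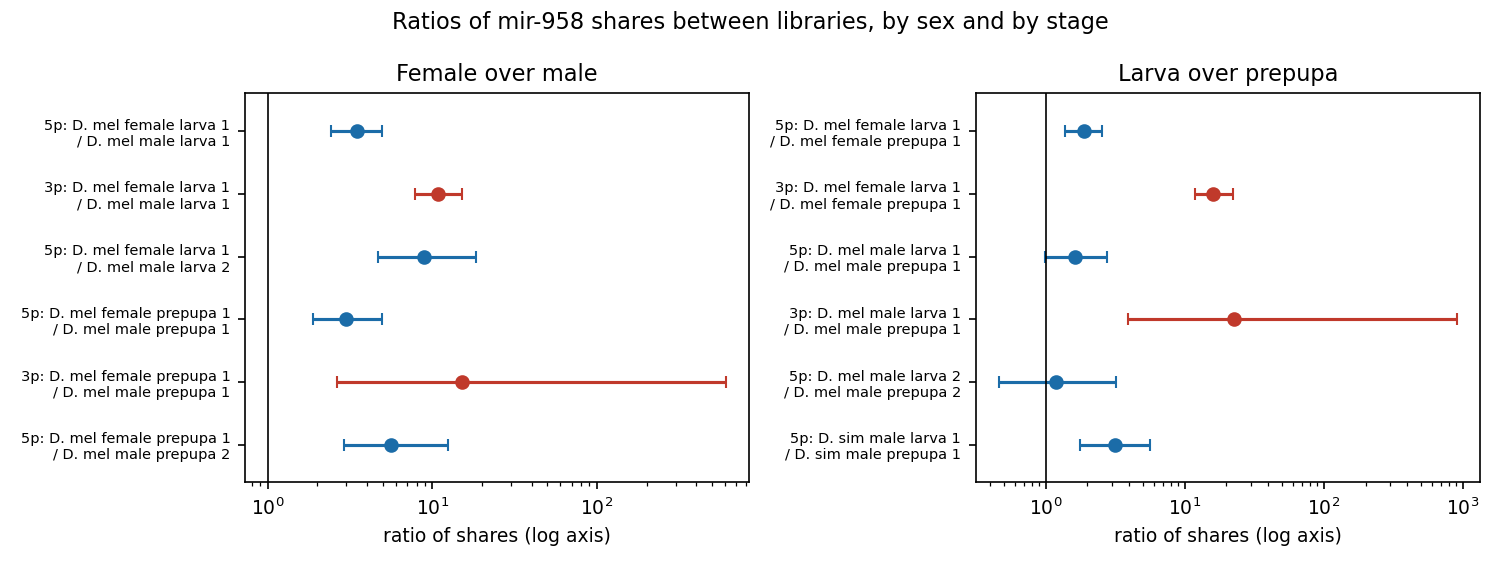
Ratios of mir-958 shares between female and male libraries and between larval and prepupal libraries, on log axes, with exact 95% intervals for counting error and the vertical line at equality. Blue is the 5p and red the 3p arm. Ratios against a library with 0 reads and those of D. yakuba are left out. All female to male ratios lie above 1, and 2 of the larva to prepupa intervals, both of the 5p arm in D. melanogaster males, include 1.

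Sex could not be separated from index. The female libraries of D. melanogaster carried the indexes CTGA and GACT and the males ACTG and TGAC, and both females were in pool SDY1. Within that pool alone, the fitted female minus male difference of miR-958-3p was 3.62 on the log2 scale, against 4.54 ± 1.32 (SE) over all 6 libraries and 6.92 without male larvae 1. The value over all 6 was the highest of the 58 arms fitted, whose median was 0.06, and miR-958-5p had 2.20 ± 1.19. In the same edgeR quasi-likelihood fit 1 of 58 arms passed an adjusted p of 0.05 (1.72%), miR-958-3p itself. Nothing is read from that call or from the rank, because the choice used this contrast. With a replicate block no arm passed that threshold, where 5 arms had an unadjusted p below 0.05 without the block and DESeq2 called 1.

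The prepupa minus larva difference over both sexes was −3.62 ± 1.42 for miR-958-3p, the second lowest of 58 arms, and −0.26 ± 1.17 for miR-958-5p, where the median arm had 0.13. The choice of the gene used the stage contrast too, so nothing is read from that rank. Without male larvae 1 the value of miR-958-3p was −1.92 and that of miR-958-5p 0.11. In that fit 1 arm passed the threshold (1.72%), let-7-5p, the timing miRNA induced by ecdysone, and 3 arms with the replicate block. Index GACT was shared by female prepupae of D. melanogaster and the deeper prepupal library of D. simulans males, in different pools. Between those, the 5p share was 3.90 times higher in the D. melanogaster females (2.72 to 5.75) and the 3p share at least 8.94 times higher, with species, sex and pool all differing.

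The female and male labels were set beside gonad miRNAs. The 20 testis-rich miRNAs summed to between 0.123% and 0.310% of reads in the 4 male libraries of D. melanogaster and to 0.0424% and 0.0332% in female larvae and prepupae. Female larvae had 2 such reads, and their interval (0.00513% to 0.153%) overlapped those of male larvae 1 and male prepupae 2. That of female prepupae (0.0190% to 0.0539%) lay below all 4 male intervals. The ovary-rich list of 4 was carried by miR-995-3p, which had reads in both sexes, and the list summed to 1.04% and 5.68% in the female libraries and 1.38% to 3.86% in the males. Of its 4 members, 1 had reads in each of these libraries, except that female prepupae had reads of 2. The part of gonad tissue in the sex difference of mir-958 was not tested.

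Whether miR-958 also differed by stage outside D. melanogaster was tested in D. simulans and D. yakuba males, which the choice of the gene did not use. miR-958-5p fell by 2.37 ± 0.83 on the log2 scale from larvae to prepupae (SE, 4 RNA samples with a term for species, edgeR quasi-likelihood test, adjusted p = 0.0487). This was the lowest value of 54 arms, whose median was −0.22. Of those arms, 7 passed the threshold, 2 higher (3.70%) and 5 lower (9.26%). That balance depended on the setting: 4 were higher and 2 lower with RLE scaling and also with the summary table, 5 and 2 with the same index alone, 3 and 0 with D. melanogaster hairpins for all libraries, 3 and 1 without the second prepupal library of D. yakuba, and 1 and 2 with DESeq2. The value rests on D. simulans, where the larval share was 3.18 times that of the prepupal library with the same index (1.77 to 5.60) and at least 5.91 times that of the library in its own pool. In D. yakuba the ratio with the same index was 2.88, from 1 and 2 reads (0.0489 to 55.4).

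The call was close to the threshold, and with 1 residual degree of freedom per arm the spread was estimated over all 54 arms together. With the prepupal libraries of the same index alone it held (−1.53, edgeR adjusted p = 0.0467). There both larval libraries were in pool SDY4 and both prepupal libraries in pool SDY3, so stage and pool cannot be told apart. The call also held without the second prepupal library of D. yakuba (−2.03, edgeR adjusted p = 0.0228). Without the second prepupal library of D. simulans it did not (−1.47, edgeR adjusted p = 0.152). Nor did it hold with RLE scaling, DESeq2, no filter, the summary table, the 3 most-read arms left out or D. melanogaster hairpins for all libraries (adjusted p = 0.0592 to 0.696). With a replicate block miR-958-5p did not pass the filter, and 0 of 40 arms were called by edgeR, against 12 arms with an unadjusted p below 0.05 without the block and 3 called by DESeq2. The block fit kept the technical libraries of 1 RNA apart as if they were separate samples. The technical prepupal libraries of D. simulans themselves differed, since 7.47 reads would match the share of the deeper library in the shallower one, where 0 were found. Their ratio was at least 1.92.

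The other arms called lower were miR-33-5p, known from lipid metabolism, miR-10-3p, miR-375-3p and miR-986-5p, and those called higher were miR-125-3p, which is cut from the same transcript as let-7, and miR-282-5p. No 3p read of mir-958 was found in these libraries, so the stage difference that its 3p arm had in D. melanogaster could not be looked for.

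Between species, male samples of both stages were compared on 62 arms in 8 RNA samples with a term for stage. miR-958-5p was 0.55 ± 0.90 (log2, SE) in D. simulans minus D. melanogaster, with a 95% interval of −1.38 to 2.48 and an edgeR adjusted p of 0.699. The sign turned with the replicate block (−0.23) and without the first prepupal library of D. simulans (−0.19). In D. yakuba it was −2.86 ± 1.14 against D. melanogaster (edgeR adjusted p = 0.202) and −3.40 ± 1.24 against D. simulans (edgeR adjusted p = 0.165). With DESeq2 the latter passed the threshold (−3.63, adjusted p = 0.0452). The D. yakuba values rest on 4 reads counted on the hairpin of another species, and reads that differ from it may have been missed. miR-958-3p did not pass the filter on low counts.

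In the same fit 6 arms were called between D. simulans and D. melanogaster, 4.84% in each direction: miR-11-3p, miR-315-5p and miR-991-3p were higher and miR-305-5p, miR-281-5p and miR-995-3p lower. With the replicate block, which kept technical libraries apart, 2 were called. Between D. yakuba and D. simulans 3 arms were called, miR-305-5p and miR-281-5p higher (3.23%) and miR-14-5p lower (1.61%), and 7 with the block. miR-305-5p had 0 reads in all 3 D. simulans libraries on the hairpins of that species, and with D. melanogaster hairpins for all libraries 1 and 0 arms were called in these 2 contrasts. Between D. yakuba and D. melanogaster edgeR called 0 arms, with 12 at an unadjusted p below 0.05, and DESeq2 called 6.

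The arms whose levels were most like those of miR-958-3p were found by Pearson's r of log2(TMM-scaled CPM + 10), as a description over libraries that share pools and depth. Over the 10 RNA samples and 96 arms these were miR-996-3p (r = 0.94), miR-10-5p (0.91), miR-316-3p (0.75), miR-281-3p (0.73) and miR-958-5p (0.69). Over the 6 D. melanogaster libraries and 84 arms they were miR-958-5p (0.94), miR-5-5p (0.94), miR-996-3p (0.94), miR-305-5p (0.93) and miR-10-5p (0.88). Without the 2 samples with the highest miR-958-3p level, the r of miR-958-5p over the remaining 8 RNA samples was 0.41, rank 32 of 96 arms. There miR-996-3p kept rank 1 (0.89) and miR-10-5p had rank 3 (0.79). Over the 4 D. melanogaster libraries left in the same way the r of miR-958-5p was 0.95, rank 6 of 84, and miR-996-3p and miR-10-5p had ranks 15 and 22.

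miR-996-3p and miR-10-5p also took most of their reads from pool SDY1. miR-996-3p had 2.52% of reads in female larvae, 0.193% in female prepupae, 0.418% and 0.0396% in male larvae 1 and 2, and 0.414% and 0.0222% in male prepupae 1 and 2. miR-10-5p had 5.30% in female larvae, 0.199% in female prepupae, 0.285% and 0.0791% in male larvae, and 0.461% and 0.0111% in male prepupae. Both were highest in female larvae, as was miR-958-3p, and both differed from it in male prepupae 1, where they had 44 and 49 reads and miR-958-3p had 1.

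Among miRNAs reported to act on fly Toll or Imd signalling, 14 hairpins with mir-958 counted, the sex fit tested 8 arms of 6 hairpins. Of these, 2 were the mir-958 arms, whose positive female minus male values the choice of the gene fixed. The other 6 arms all had negative values, with a median of −1.24 beside 0.06 for all 58 arms, and none was called. Among them, miR-8-3p, a miRNA of growth and insulin signalling, had −0.92 ± 1.55, miR-8-5p −0.09 ± 1.17 and miR-34-5p, an ecdysone-repressed miRNA of ageing and immunity, −3.07 ± 1.40. In the stage fit of D. simulans and D. yakuba 2 of 8 arms had positive values and 6 negative, with a median of −0.35 beside −0.22 for all 54, and 1 passed, miR-958-5p, where 7 of all 54 arms did and where that call was lost under most alternatives. In the stage fit of D. melanogaster 8 arms were tested, and 2 were the mir-958 arms, both negative, whose stage contrast the choice of the gene used. Of the other 6 arms 3 had positive values, with a median of 0.39 beside 0.13 for all 58. Among them let-7-5p passed, the 1 arm of all 58 that did (1.72%).

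The remaining lists were read in the sex fit. Of the 7 steroid-linked arms tested, 3 had positive and 4 negative values, with a median of −0.09. The ovary-rich list had 1 arm tested (miR-995-3p, 0.11) and the muscle list 1 (miR-1-3p, 0.55). The nervous system list had 2 arms tested, both negative, with a median of −0.14, and no arm of the testis-rich list passed the filter. None of these arms was called by edgeR.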

How the data were processed

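Small RNA of 16 to 28 nt was cut from a gel and sequenced, per the labels' protocols. The authors aligned reads to miRBase release 15 hairpins, with Bowtie 0.12.5 named in the submitters' processing notes. The deposited summary table holds expected counts, in which a read is divided among its loci, and the deposited alignment texts give reads for each read sequence. Neither is normalized. Reads were summed again per arm from the texts, on the hairpins of each species where listed and otherwise on those of D. melanogaster (338 arms). Of 3912 cells compared with the summary table, 8 differed by more than 1 read. Columns of libraries outside the series, 8 in all, were not used.

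Technical libraries of 1 RNA were summed for tests, except in the fits with a replicate block, where they entered as separate samples. Arm sums were rounded, filtered with filterByExpr, scaled by TMM and tested with edgeR 4.0.16 (quasi-likelihood, Benjamini-Hochberg over all arms of a fit, threshold 0.05; limma 3.58.1, DESeq2 1.42.0 as alternative, R 4.3.3). Intervals are exact at the 95% level (scipy 1.17.1), and a count of 0 is given with the limit of its exact interval. A p-value reflects the spread of these samples alone. In the stage fit of D. simulans and D. yakuba each species had 1 RNA per stage. Its p-value therefore rests on how far the stage differences of all 54 arms together varied between the species. It does not rest on that of miR-958-5p alone or on spread between RNA samples of 1 group. The labels say that the D. melanogaster male replicates came from different RNA. Their numbers go with the pool in the sample titles, and same-numbered larvae and prepupae deviated together (r = 0.60 over 74 arms), so the number was tried as a block. The fits were also run on simulated counts with the same spread set for all arms. That run checks the code and does not show how the fits behave at the spread of these data. Named were both mir-958 arms, the 5 arms most like miR-958-3p with at least 20 reads, called arms (at most 5 in each direction), at most 3 members of a list by reads, and miRNAs with the same seed. miR-279-3p was named after its value was seen, and bantam and miR-977 for their first bases. mir-958, the lists (Toll and Imd, steroid-linked, ovary-rich, testis-rich, muscle, nervous system) and the tests were chosen with earlier results of these data known. The genome build behind the deposited locus coordinates is not given in the sources used here, and positions come from BDGP6.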

Additional observations from a re-analysis of the deposited data

How the results depend on the processing

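The percentages of 3p reads were the same from the summary table. With exact matches alone the share of full-length reads was the same in each library with at least 20 reads of an arm, except for miR-958-5p in the deeper prepupal library of D. simulans (61.8% against 60.0%). The stage difference of miR-958-5p in D. simulans and D. yakuba kept its sign and missed the threshold with RLE scaling (−1.96), DESeq2 (−1.80), no filter (−1.33), the summary table (−1.98), the 3 most-read arms left out (−1.63) and D. melanogaster hairpins for all (−1.97, chosen after seeing the data). Leaving out the second prepupal library gave −2.03 for D. yakuba, where the call held, and −1.47 for D. simulans, where it did not. Without the first prepupal library of either species miR-958-5p was not among the arms fitted, and no test was left without a larval library. Calls in that fit were 3 with DESeq2, 0 without a filter, 0 without the 3 arms, 0 with the replicate block, 3 with D. melanogaster hairpins and 0 to 4 without a library.

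For D. simulans minus D. melanogaster, miR-958-5p was −0.23 with the replicate block and −0.19 to 0.83 without a library. Calls were 2 with the block, 1 with D. melanogaster hairpins, 3 without pool SDY1 and 0 to 9 without a library. For D. yakuba minus D. melanogaster calls were 6 with DESeq2, 2 without a filter, 1 without pool SDY1 and 0 to 3 without a library. For D. yakuba minus D. simulans they were 8 with DESeq2 (miR-958-5p −3.63), 1 with the summary table, 7 with the block, 0 with D. melanogaster hairpins, 10 without pool SDY1 and 0 to 5 without a library. Leaving out pool SDY1, or using it alone, was chosen after seeing the data.

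In the sex fit of D. melanogaster calls were 0 without a filter, without the 3 arms, with the block and in pool SDY1 alone, and 0 to 2 without a library. In its stage fit they were 2 with RLE scaling, 6 with DESeq2, 0 without a filter, 2 without the 3 arms, 3 with the block, 0 in pool SDY1 alone and 0 to 6 without a library, where the miR-958-5p difference ran from −0.86 to 0.11 and that of miR-958-3p from −4.67 to −1.92. The miR-958-3p sex difference ran from 4.01 to 6.92.

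With TMM-scaled sizes, the ratio of female to male larvae 1 was 7.68 for 3p, and of female to male prepupae 1 it was 6.26 for 5p. The ratio of larvae to prepupae in males 2 was 0.870 (TMM) and 0.872 (RLE) for 5p. In females it was 1.07 (TMM) and 1.16 (without the 3 arms) for 5p, and 9.12 and 9.93 for 3p. The cause of these shifts was not tested. Depth limits the 3p arm outside pool SDY1, where 81 mir-958 reads were found in all.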

Other observations

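bantam, which shares its first 6 bases with miR-958-3p, was read on both arms in changing proportions. In D. melanogaster it had 140 reads of its 5p arm and 145 of its 3p arm in female prepupae and 1 and 2 in female larvae. In males of that species it had 8 and 180 in larvae 1, 1 and 8 in larvae 2, 2 and 101 in prepupae 1, and 1 and 40 in prepupae 2. In D. simulans it had 55 and 28 in the deeper prepupal library, 0 and 10 in the other library of that RNA, and 4 and 7 in larvae. In D. yakuba it had 7 and 17 in the deeper prepupal library, 0 and 14 in the other, and 2 and 2 in larvae. These libraries differ in index, pool, depth, species and sex, the values were picked after they were seen, and no test was made.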
